A study of Mus musculus with 8 samples.

Results

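The genes described here are the calcium, potassium and TRP channel genes of SN4741 cells: every gene whose symbol begins with Cacna, Cacnb, Cacng or Kcn, is Hcn with a number, or begins with Trpc, Trpm or Trpv and a number. The rule used symbols alone and found 152 of the 31053 genes in the deposited matrices. At least 1 UMI (unique molecular identifier, a count of 1 captured transcript molecule) was found for 110 of them in the kept cells, 62 had enough UMIs for a test of temperature, and 34 passed it, 21 higher and 13 lower at 39 °C. The symbols also catch genes that are no channel subunits: Trpc4ap, a protein that associates with a TRP channel, and 6 noncoding or antisense genes such as Kcnq1ot1.

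Voltage-gated calcium channels are built from a pore subunit (Cacna1 genes), which sets the type of current, and accessory subunits (Cacna2d, Cacnb and some of the Cacng genes) that act on its traffic and gating. Potassium channels set the resting potential and end action potentials: the voltage-gated family repolarizes, inward rectifiers (Kcnj) and leak channels (Kcnk) hold the resting potential, and the Kcnn and Kcnma genes encode channels that open with cytosolic calcium. Hcn genes carry the pacemaker current, and TRP channels are cation channels that open with lipids, stretch, heat or store depletion. Midbrain dopaminergic neurons are known for pacemaking that rests on L-type calcium, Hcn and calcium-activated potassium channels.

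SN4741 is a clonal mouse line from embryonic substantia nigra, held in cycle by a heat-sensitive viral T antigen under the Th promoter, and the study found its karyotype polyploid and unstable. Single-cell RNA was captured at the 3′ end in 8 libraries of this transgenic line, 4 from each temperature. Cells at 37 °C, the permissive temperature, grew in 10% serum, while those at 39 °C, the non-permissive temperature, had spent 48 hours in 0.5% serum, so that temperature and serum cannot be told apart. The labels do not say whether replicates were separate cultures, so p-values measure the spread between these libraries, which may be technical.

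After filtering, 8550 cells at 37 °C and 9801 at 39 °C were kept, with 17166686 to 29633818 UMIs per library, and any 2 libraries shared at most 5 barcodes. The 39 °C replicate 1 stood apart with the fewest cells, 985, and the most UMIs per cell, a median of 16665. Cells assigned to G1 made up 20.0% to 28.1% of a library at 37 °C and 82.0% to 84.9% at 39 °C. Of 7 markers of the labelled cell type, neural precursor cells, Nes and Sox2 were abundant (467 and 55.4 CPM at 37 °C, 108 and 76.5 CPM at 39 °C, CPM being counts per 1000000 UMIs of tested genes after scaling). The others, Pax6, Fabp7, Sox1, Hes5 and Msi1, had 0 to 12 UMIs each over all libraries. Neuronal genes were no fuller a set: Dcx had 0 UMIs, Snap25 had 1 UMI and Syt1 had 7. The abundant Stmn2, Map2 and Tubb3 fell at 39 °C. Gap43 and Rbfox3, the rest of the listed neuronal genes, passed in neither direction. Their log2 fold changes were positive, 0.41 ± 0.22 and 0.80 ± 0.80 (SE; edgeR adjusted p = 0.118 and 0.410). Of every 1000000 UMIs of all genes, 5 mesenchymal markers together took 1751 to 1818 at 37 °C and 823 to 856 at 39 °C, Col1a1 being the highest. Whether these shifts in phase and marker levels had a part in the channel results was not tested, and in sums over a library more RNA per cell and more cells with RNA cannot be told apart.

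Sequences before the RefSeq start are shown for the members with a call of at least 1.5 in log2 size and an adjusted p under 0.01 (a strict call) in all kept cells or in G1 cells, because they changed most. Of those 7 members, Kcnk2 was left out for having 4 RefSeq starts and Kcnk7 for a window that runs into an annotated exon. Each line gives the 250 bases before the RefSeq start (GRCm38.p6), 5′ to 3′ on the gene's strand, with GC boxes (GGGCGG on either strand, overlaps counted) in capitals.
Kcnj4, chr15:79505242-79505491, minus strand: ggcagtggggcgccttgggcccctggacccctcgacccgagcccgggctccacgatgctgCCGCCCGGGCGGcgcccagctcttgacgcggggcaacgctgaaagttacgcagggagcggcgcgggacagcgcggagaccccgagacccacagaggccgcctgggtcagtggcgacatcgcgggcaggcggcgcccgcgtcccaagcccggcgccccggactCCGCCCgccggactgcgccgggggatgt
Cacna1b, chr2:24763153-24763402, minus strand: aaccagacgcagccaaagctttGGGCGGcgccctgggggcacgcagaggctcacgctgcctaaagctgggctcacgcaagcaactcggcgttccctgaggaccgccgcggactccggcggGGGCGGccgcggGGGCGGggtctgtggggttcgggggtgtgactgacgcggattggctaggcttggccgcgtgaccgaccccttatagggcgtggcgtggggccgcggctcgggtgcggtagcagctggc
Kcnh2, chr5:24329592-24329841, minus strand: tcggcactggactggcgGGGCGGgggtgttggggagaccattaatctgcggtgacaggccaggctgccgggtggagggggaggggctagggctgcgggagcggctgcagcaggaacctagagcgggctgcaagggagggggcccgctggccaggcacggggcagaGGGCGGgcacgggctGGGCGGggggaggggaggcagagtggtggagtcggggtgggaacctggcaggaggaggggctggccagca
Trpm6, chr19:18749480-18749729, plus strand: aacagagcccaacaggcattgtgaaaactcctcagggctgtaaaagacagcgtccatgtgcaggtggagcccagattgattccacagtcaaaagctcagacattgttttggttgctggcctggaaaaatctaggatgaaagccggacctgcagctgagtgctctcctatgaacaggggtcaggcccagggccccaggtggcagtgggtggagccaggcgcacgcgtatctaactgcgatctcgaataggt
Kcnmb4os2, chr10:116472913-116473162, plus strand: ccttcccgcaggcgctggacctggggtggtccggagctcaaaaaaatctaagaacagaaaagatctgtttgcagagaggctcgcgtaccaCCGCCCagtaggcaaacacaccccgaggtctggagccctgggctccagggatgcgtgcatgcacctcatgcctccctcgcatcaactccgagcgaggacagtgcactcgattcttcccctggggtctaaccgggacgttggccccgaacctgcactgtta
The Kcnh2 window lies inside the gene as GENCODE M21 annotates it (chr5:24319589-24351604, minus strand), before a RefSeq start within it, whereas the other 4 windows lie outside their annotated genes. The Kcnj4, Cacna1b and Kcnh2 windows each held 3 GC boxes, although the first pair belong to genes that rose and Kcnh2 fell. Kcnmb4os2 held 1 and Trpm6 none. GC content was 77.2% for Kcnj4, 72.0% for Cacna1b, 73.6% for Kcnh2, 60.0% for Kcnmb4os2 and 54.4% for Trpm6, against a median of 52.4% over all 32851 mouse windows. RefSeq windows were matched by symbol for 50 of the 62 tested members (73 windows), and their median GC content was 59.2%, also above that of all windows. A GC box was held by 43.8% of these windows, against 32.7% of all, and the part of base content in this was not tested. Among windows of members that rose, 14 of 24 held a GC box, and among those that fell, 8 of 17. A heat shock element written as GAANNTTC was found in 4.11% of member windows and 6.69% of all. The CRE letters TGACGTCA and the E2F letters TTTCCCGC or TTTGGCGC were in 0 of 73 windows, against 1.55% and 1.30% of all. These matches describe letters in short windows, and the 3′ counts do not show which start site a transcript came from.

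Detection came first, since a gene without UMIs cannot be compared. No UMI was found for 42 of the 152 members, which over the pooled libraries allows a level of up to 0.0265 CPM at 37 °C and 0.0308 CPM at 39 °C (3 counts, counting error only). Among them were the skeletal muscle and retinal calcium pores Cacna1s and Cacna1f, 16 of 40 voltage-gated potassium pore genes including Kcna1, Kcna3, Kcna5, Kcna6 and Kcnd3, and Kcnj3, Kcnj5 and Kcnj6, inward rectifiers that G proteins open. The ATP-sensitive rectifiers Kcnj8 and Kcnj11, the pacemaker gene Hcn4 and the receptor-operated Trpc6 and Trpc7 had 0 UMIs as well. A further 48 members were seen with 1 to 7 UMIs in all 8 libraries together. The L-type pore Cacna1d, well known from dopaminergic pacemaking, had 1 UMI, and the big-conductance pore Kcnma1 had 5. Of these 90 genes, it can be said only that they were not detectable or nearly so at this depth. Every member of the Cacnb, Cacna2d, Trpm and Trpv groups had at least 1 UMI, while 7 of 15 Kcnj and 4 of 7 Trpc genes had none.

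**Figure D1:**
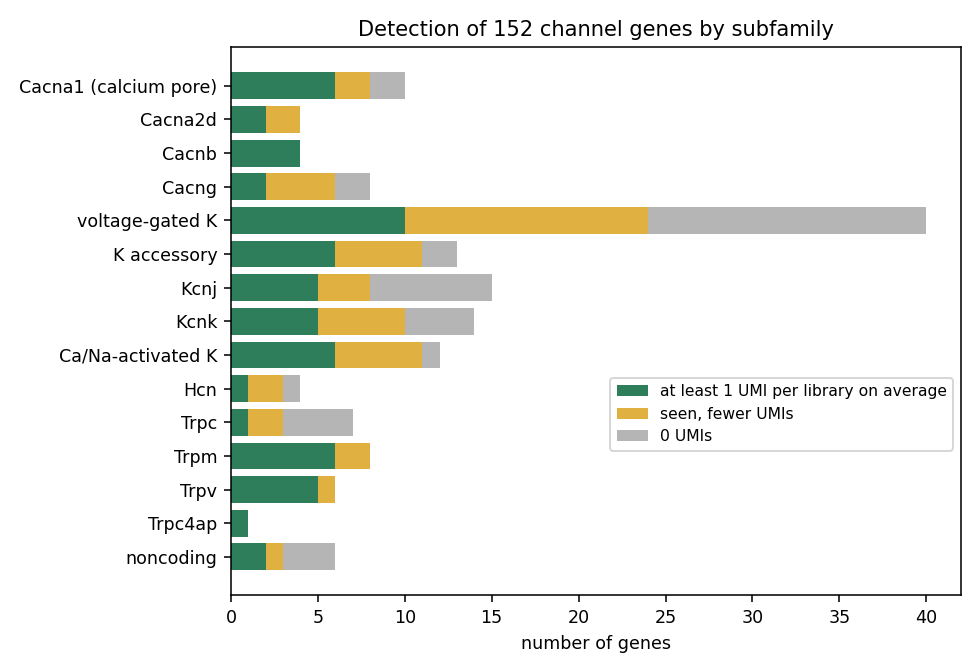
Number of genes (horizontal axis) in each subfamily, split into those with at least 1 UMI per library on average, which were tested, those seen with fewer UMIs and those with 0 UMIs. All 4 Cacnb genes were tested, and the voltage-gated potassium genes hold the largest number with 0 UMIs, 16 of 40.

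The tested members lay mostly at low levels. A mean of at least 1 CPM in either temperature was reached by 27 members and of at least 10 CPM by 10, and 49 had a UMI in every library. The most abundant were Cacna1a, the P/Q-type calcium pore, Kcnq1ot1, a long noncoding RNA of an imprinted region, Trpm7, a channel fused to a kinase, Trpc4ap and Cacnb3. Of every 1000000 UMIs, the members together took 513 ± 9.31 at 37 °C and 589 ± 21.9 at 39 °C (SD, n = 4 each), without overlap of the libraries. Without Trpc4ap and the noncoding genes they took 368 ± 9.31 and 414 ± 22.7, again without overlap. UMIs count molecules by their 3′ ends, so a level is not divided by gene length.

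In all kept cells, 34 of the 62 tested members passed the test of 39 °C against 37 °C (edgeR quasi-likelihood test, adjusted p under 0.05 over 15810 genes), or 54.8%, against 62.0% of all genes tested. Higher at 39 °C were 21 members, 33.9%, against 31.5% of all genes, and lower were 13, 21.0%, against 30.5%. The median log2 fold change was 0.31 over the tested members and 0.02 over all genes. A log2 size over 1 together with a pass was found in 13 members, 21.0%, against 14.1% of all genes. Strict calls numbered 4, or 6.45% against 5.83% of all genes: Kcnj4 and Cacna1b rose, and Kcnh2 and Kcnk7 fell. The 4 libraries of one temperature all lay above the 4 of the other in 27 members, 43.5%, against 56.7% of all genes. The share that passed differed by level: 14 of 39 members under 1 CPM (28.0% of all genes at that level), 12 of 14 between 1 and 10 CPM (66.7%), and 8 of 9 above (77.4%).

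**Figure D2:**
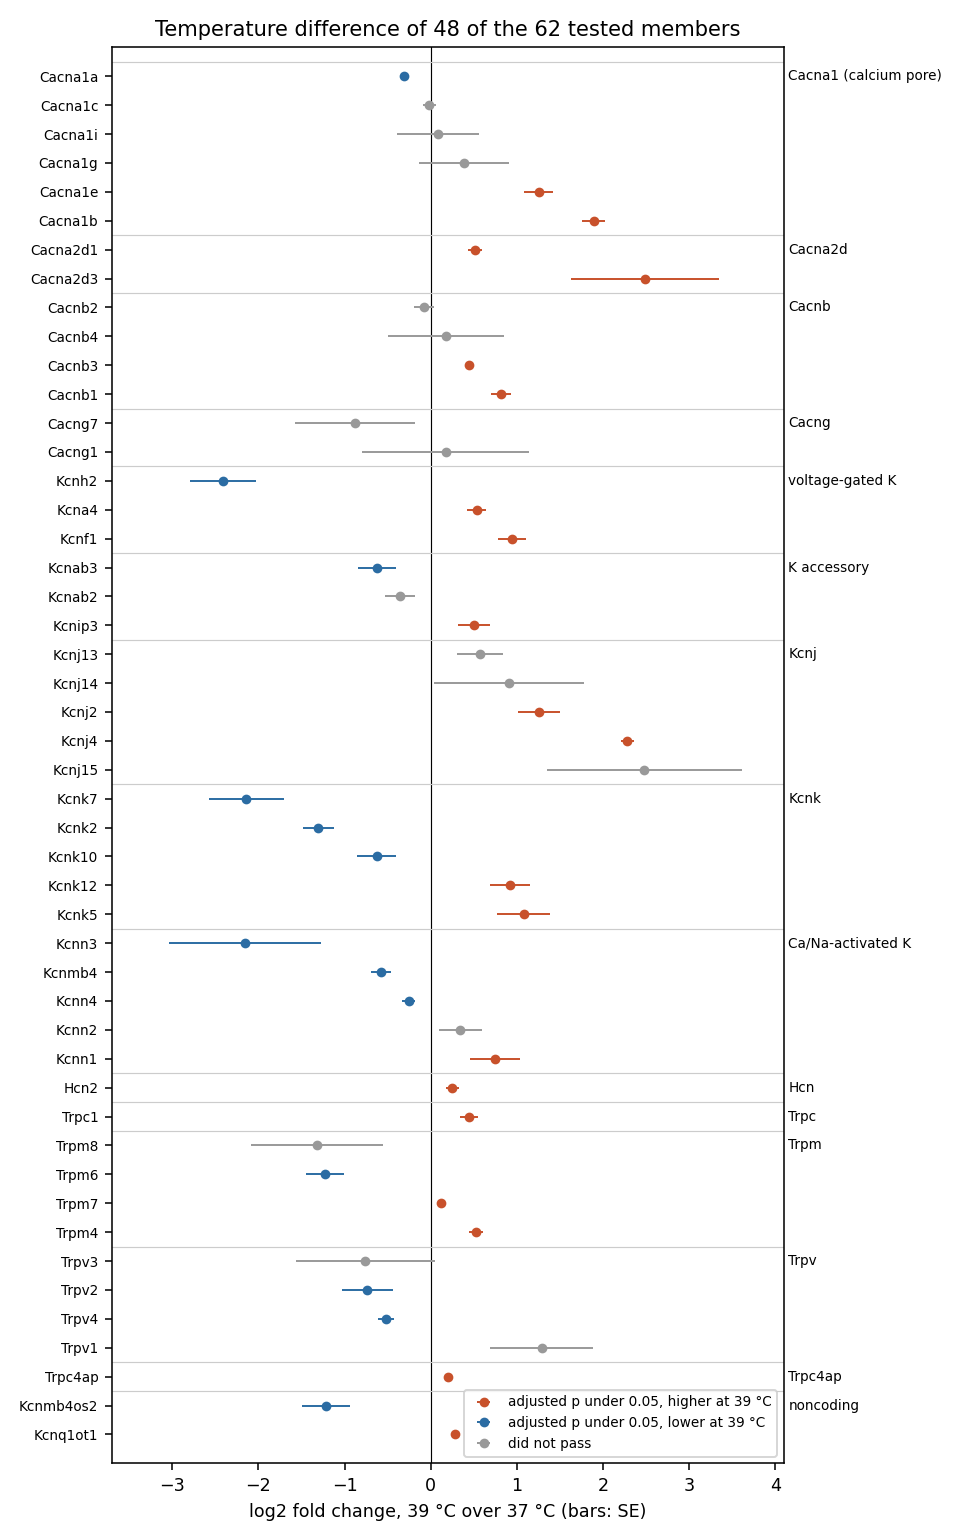
Log2 fold change of 39 °C over 37 °C (horizontal axis) with its standard error for the 48 of 62 tested members that are named in the text, grouped by subfamily, with colours for members that passed the test in each direction and grey for those that did not. Points to the right are higher at 39 °C, and Kcnj4 and Cacna1b stand furthest right among those with small errors.

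Among calcium pore genes, 2 of 6 tested members rose, 1 fell and 3 did not pass. Cacna1a was by far the most abundant, at 123, 142, 137 and 129 CPM in the 37 °C libraries and 116, 103, 103 and 107 CPM at 39 °C. All libraries at 39 °C lay below all at 37 °C, and the fold change was small, with a log2 value of -0.31 ± 0.05 (SE; edgeR adjusted p = 5.39e-05). Its exons overlap those of Gm16183 on the other strand. Cacna1b, the N-type pore of presynaptic terminals and the member that the study itself names, stood at 1.61, 1.16, 1.05 and 1.16 CPM at 37 °C and at 5.11, 4.81, 4.39 and 4.39 CPM at 39 °C. Each 39 °C library was well above the highest at 37 °C, a 3.71-fold rise (log2 1.89 ± 0.14 SE, edgeR adjusted p = 4.41e-10). Cacna1e, the R-type pore, measured 1.44, 1.20, 1.16 and 0.702 CPM at 37 °C and 2.55, 2.54, 2.65 and 2.97 CPM at 39 °C, again without overlap (log2 1.25 ± 0.17 SE, edgeR adjusted p = 3.06e-06). The L-type pore Cacna1c averaged 11.5 ± 0.900 and 11.4 ± 1.02 CPM (SD, n = 4 each) and did not pass (log2 -0.02 ± 0.08 SE). The T-type pores Cacna1g and Cacna1i had 28 and 29 UMIs in all and did not pass. Of all UMIs of calcium pore genes, Cacna1a held 90.3% ± 1.14 at 37 °C and 84.9% ± 0.734 at 39 °C, and Cacna1b 0.855% ± 0.210 and 3.70% ± 0.163 (SD, n = 4 each).

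Tested genes of the Cacnb, Cacna2d and Cacng groups rose or did not pass, and none fell. Cacnb3, the main beta subunit here, measured 52.4, 52.1, 54.5 and 55.6 CPM at 37 °C and 75.6, 74.2, 71.4 and 71.2 CPM at 39 °C, a tight and separate pair of groups (log2 0.44 ± 0.04 SE, edgeR adjusted p = 4.11e-08). Cacnb1, the beta subunit of skeletal muscle, rose 1.76-fold, from 3.42 ± 0.509 to 6.05 ± 0.706 CPM (SD, n = 4 each). Cacnb2 averaged 4.04 and 3.79 CPM and did not pass, and neither did Cacnb4 with 18 UMIs in all. Cacna2d1, which brings pores to the surface and binds gabapentinoid drugs, rose from 8.25 to 9.46 CPM at 37 °C to 11.3 to 14.6 CPM at 39 °C (log2 0.51 ± 0.08 SE, edgeR adjusted p = 1.48e-05). Cacna2d3 passed too, but on 2 UMIs at 37 °C against 12 at 39 °C, a ratio of pooled levels of 6.98 with a 95% counting interval of 1.55 to 64.2. The 2 tested gamma genes, Cacng7 and Cacng1, had 19 and 10 UMIs and did not pass.

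Inward rectifiers held the largest rise with a small error. Kcnj4, a strong rectifier of neurons and heart, stood at 5.76, 5.08, 5.29 and 5.76 CPM in the 37 °C libraries and at 30.1, 27.0, 24.6 and 25.3 CPM at 39 °C. The groups were far apart, with a 4.85-fold rise (log2 2.28 ± 0.08 SE, edgeR adjusted p = 5.16e-15). Kcnj2, a related strong rectifier known for holding the resting potential of muscle, rose from 0.343, 0.465, 0.421 and 0.456 CPM to 1.19, 0.757, 1.06 and 1.08 CPM. It too had no overlap between the groups, at levels far below those of Kcnj4 (log2 1.26 ± 0.24 SE, edgeR adjusted p = 0.000139). Kcnj13, Kcnj14 and Kcnj15 did not pass, and none of the 5 tested Kcnj genes fell. Of the UMIs of this subfamily, Kcnj4 held 85.0% ± 2.12 at 37 °C and 93.5% ± 0.586 at 39 °C (SD, n = 4 each). The gene lies at chr15:79483714-79505241 on the minus strand (GENCODE M21, GRCm38), and Cacna1b at chr2:24603887-24763152, also on the minus strand.

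All 5 tested leak channel genes passed, in both directions: Kcnk12 and Kcnk5 rose, and Kcnk7, Kcnk2 and Kcnk10 fell. Kcnk10 was at 0.885 ± 0.240 and 0.554 ± 0.167 CPM in G1 cells at 37 °C and 39 °C, without a pass there. In S and G2M cells together its mean was higher at 39 °C, 1.30 ± 0.124 and 2.17 ± 1.38 CPM (SD, n = 4 each). The difference of these effects did not pass (log2 1.29 ± 0.55 SE, edgeR adjusted p = 0.0952). Kcnk2, a leak channel that opens with stretch and lipids, stood at 2.50, 1.82, 2.24 and 2.21 CPM at 37 °C and at 1.25, 0.871, 0.779 and 0.771 CPM at 39 °C. The lowest 37 °C library lay above the highest at 39 °C (log2 -1.31 ± 0.18 SE, edgeR adjusted p = 3.06e-06). Its exons overlap those of A430027H14Rik on the other strand. Kcnk7 had 16, 14, 9 and 18 UMIs in the 37 °C libraries and 1, 6, 2 and 2 at 39 °C, low but separate (log2 -2.14 ± 0.43 SE, edgeR adjusted p = 0.000266). Kcnk12 rose 1.90-fold from 0.591 ± 0.168 to 1.14 ± 0.171 CPM (SD, n = 4 each), and Kcnk5, an acid-sensitive leak channel, from 0.410 to 0.865 CPM. Among G1 cells, the 37 °C and 39 °C means of Kcnk5 were 0.897 and 0.977 CPM, with 37 °C replicate 4 high at 2.07 CPM. In S and G2M cells together they were 0.300 and 0.289 CPM, so neither set showed a rise of that size. A test of the difference between these effects did not pass (log2 -0.08 ± 0.91 SE, edgeR adjusted p = 0.972). What part phase had in the rise of Kcnk5 was not tested. The subfamily as a whole took 4.92 ± 0.550 of every 1000000 UMIs at 37 °C and 3.93 ± 0.694 at 39 °C (SD, n = 4 each), with overlap, while Kcnk2's part of it went from 44.5% ± 7.19 to 23.5% ± 2.57.

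Of 10 tested voltage-gated potassium pore genes, 3 rose and 1 fell. Kcnh2, which encodes the hERG channel of cardiac repolarization, had 17, 14, 16 and 16 UMIs in the 37 °C libraries and 1, 2, 5 and 2 at 39 °C. That is 0.562 ± 0.0164 and 0.0966 ± 0.0544 CPM (SD, n = 4 each), with no overlap (log2 -2.41 ± 0.38 SE, edgeR adjusted p = 1.68e-05). Kcnf1, an electrically silent subunit that modifies other voltage-gated pores, measured 1.89, 1.78, 2.21 and 1.72 CPM at 37 °C and 3.18, 3.33, 3.08 and 5.01 CPM at 39 °C (log2 0.95 ± 0.16 SE, edgeR adjusted p = 4.15e-05). The 39 °C replicate 4 was far above the other three, yet each of those was also above every 37 °C library. Kcna4, a fast-inactivating A-type pore, rose 1.45-fold from 5.17 ± 0.834 to 7.52 ± 0.895 CPM (SD, n = 4 each). Among 6 accessory genes, Kcnip3 rose and Kcnab3 fell, and Kcnab2 (log2 -0.36 ± 0.17 SE, edgeR adjusted p = 0.0804) did not pass. Kcnab2 shares exons on its own strand with Gm16334, so its counts are uncertain.

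Of the calcium- and sodium-activated group, 3 of 6 tested members fell and 1 rose. Kcnn4, the intermediate-conductance channel of lymphocytes and red cells, measured 11.2, 12.9, 11.1 and 12.1 CPM at 37 °C and 10.9, 10.4, 10.0 and 8.64 CPM at 39 °C. The groups lay side by side without overlap (log2 -0.26 ± 0.08 SE, edgeR adjusted p = 0.00782). Kcnmb4, the neuronal accessory subunit of the big-conductance channel, fell from 5.07 ± 0.264 to 3.38 ± 0.675 CPM (SD, n = 4 each; log2 -0.58 ± 0.12 SE, edgeR adjusted p = 0.0003), while its pore gene Kcnma1 had too few UMIs to test. The noncoding Kcnmb4os2, whose exons overlap those of Kcnmb4 on the other strand at chr10:116473163-116475319, fell as well, from 0.952 ± 0.197 to 0.405 ± 0.157 CPM (SD, n = 4 each). The small-conductance Kcnn2 did not pass, Kcnn1 rose, and Kcnn3 fell on 12 UMIs against 2, a ratio of 0.194 with a 95% counting interval of 0.0211 to 0.871. Kcnn1 and Kcnn3 lost their calls without 1 library in 4 and 5 of 8 cases.

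Hcn2, a pacemaker pore, was the tested member of its group and rose slightly, from 7.75, 7.94, 7.50 and 7.55 CPM to 9.76, 8.82, 9.10 and 9.06 CPM (log2 0.25 ± 0.07 SE, edgeR adjusted p = 0.00414). Small as the rise was, the groups did not overlap. Hcn3 had 5 UMIs.

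TRP genes moved in both directions. Trpm4, a sodium-permeable channel that opens with cytosolic calcium, measured 7.54, 8.25, 6.77 and 7.20 CPM at 37 °C and 10.9, 11.2, 10.7 and 9.98 CPM at 39 °C, without overlap (log2 0.53 ± 0.08 SE, edgeR adjusted p = 6.34e-06). Trpc1, a subunit of receptor-operated channels, rose 1.36-fold. Trpm6, a magnesium channel of kidney and gut and the close relative of Trpm7, stood at 1.13, 1.28, 1.19 and 1.19 CPM at 37 °C and at 0.624, 0.492, 0.354 and 0.617 CPM at 39 °C. Each 39 °C library was far below the lowest at 37 °C (log2 -1.22 ± 0.22 SE, edgeR adjusted p = 7.22e-05). Trpm7 itself, at 78.5 ± 1.62 and 85.3 ± 4.32 CPM (SD, n = 4 each), passed by a narrow margin with overlapping groups (log2 0.12 ± 0.05 SE, edgeR adjusted p = 0.0337), and lost the call when any 1 of 7 libraries was left out and under 4 other settings. Of the Trpv genes, no tested member rose. Trpv4, a channel opened by swelling and warmth, fell from 7.79 to 8.87 CPM at 37 °C to 4.85 to 6.28 CPM at 39 °C (log2 -0.52 ± 0.09 SE, edgeR adjusted p = 4.73e-05), and Trpv2 fell on 78 against 41 UMIs. The heat-gated Trpv1 and Trpv3 had 29 and 15 UMIs and did not pass, and cold-gated Trpm8, with 20, did not either. Trpc4ap rose from 71.2 ± 2.44 to 81.8 ± 1.10 CPM (SD, n = 4 each; log2 0.20 ± 0.04 SE, edgeR adjusted p = 0.000477), although its exons overlap those of Myh7b on the other strand. Kcnq1ot1, which is antisense to Kcnq1, rose 1.22-fold from 74.5 ± 3.33 to 90.9 ± 1.96 CPM (SD, n = 4 each), while Kcnq1 had 7 UMIs.

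**Figure D3:**
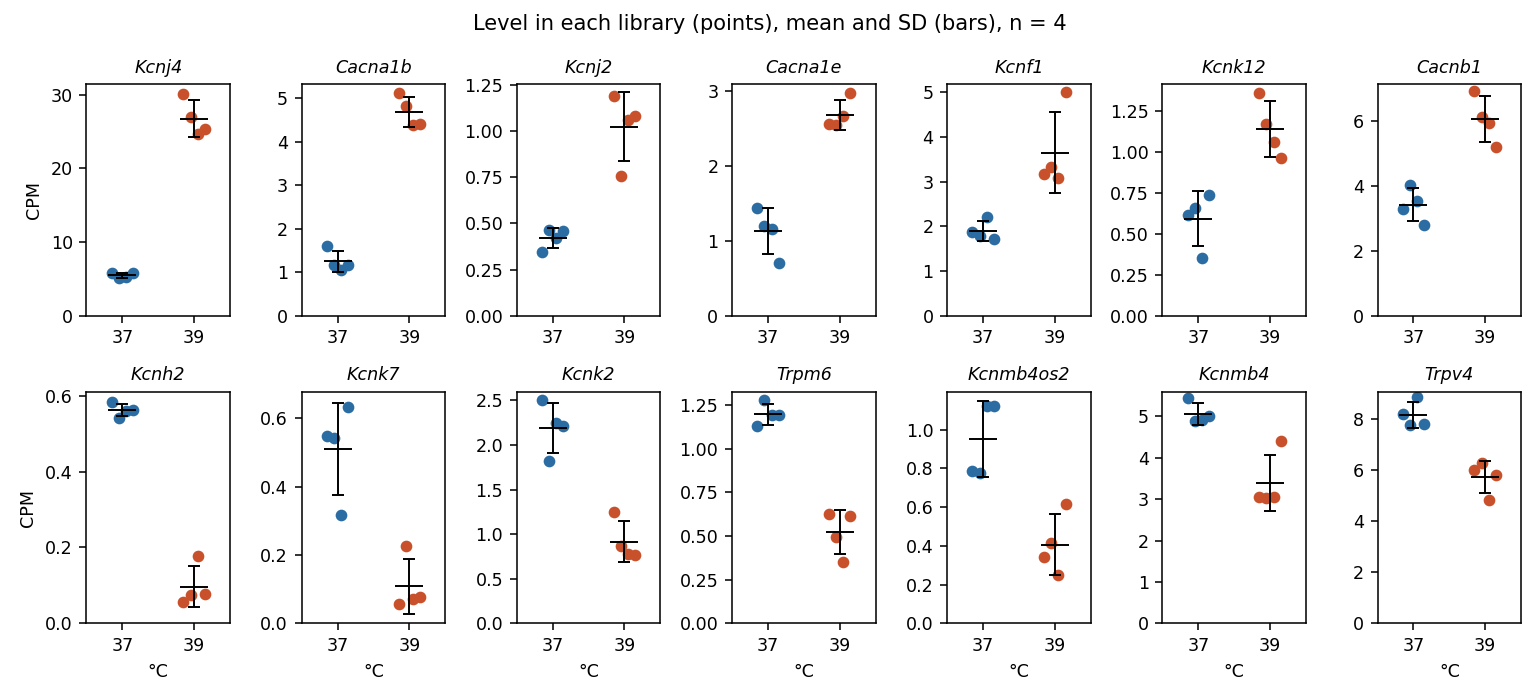
Level in CPM (vertical axis of each panel, from 0) of 14 members in each of the 4 libraries at 37 °C (blue) and 39 °C (orange), with the mean and SD in black. In every panel the 2 groups of points are apart, with Kcnf1 and Kcnmb4 each showing 1 high library at 39 °C.

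Cells at 39 °C were mostly in G1 and those at 37 °C mostly not, so the temperatures were compared again among G1 cells alone. Here 19 of 54 tested members passed, 35.2%, against 47.0% of 14693 genes. Higher were 12 members, 22.2%, against 24.6% of all genes, and lower were 7, 13.0%, against 22.4%. The median log2 fold change was 0.13 over the members and 0.04 over all genes. Kcnj4 remained the clearest rise, from 7.04 ± 0.364 to 28.1 ± 2.77 CPM (SD, n = 4 each; log2 1.99 ± 0.11 SE, edgeR adjusted p = 8.91e-13). Cacna1b rose from 1.74 ± 0.589 to 5.22 ± 0.476 CPM (log2 1.53 ± 0.21 SE, edgeR adjusted p = 2.28e-06). These, with falls of Kcnk2, Trpm6 and Kcnmb4os2, were the 5 strict calls in G1 cells, 9.26% of members, against 2.49% of all genes. Kcnk2 went from 2.68 ± 0.684 to 0.886 ± 0.221 CPM (SD, n = 4 each; log2 -1.65 ± 0.27 SE, edgeR adjusted p = 2.25e-05). Trpm6 fell by 1.63 ± 0.37 on the log2 scale (SE; edgeR adjusted p = 0.000737), on 37 UMIs at 37 °C and 41 in the deeper 39 °C sums of G1 cells. Strict calls in G1 cells numbered 3 without 37 °C replicate 2 or 4, or without 39 °C replicate 1 or 3.

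Some members had another call or another size of change when G1 cells alone were taken. Kcnh2 had 3 UMIs in G1 cells at 37 °C and 7 at 39 °C, a ratio of 0.663 with a 95% counting interval of 0.151 to 3.97, and did not pass (edgeR adjusted p = 0.687). Kcnk7 did not pass either, at a log2 value of -1.36 ± 0.78 (SE). Kcnn4 was at 9.30 ± 1.13 and 9.45 ± 1.21 CPM in G1 cells (SD, n = 4 each), and Kcna4 at 7.03 ± 1.08 and 7.44 ± 0.996 CPM, neither passing. Outside G1, the means of Kcnn4 were 12.9 ± 0.934 and 13.5 ± 2.43 CPM. Its fall in all kept cells was thus seen in the means of neither set. Cacnb2, which had not passed in all kept cells, was lower at 39 °C among G1 cells, at 5.15 ± 0.732 and 3.64 ± 0.543 CPM (SD, n = 4 each; log2 -0.49 ± 0.17 SE, edgeR adjusted p = 0.0195), with overlapping groups, and lost the call without 37 °C replicate 1, 2 or 3 and with phases scored in each library separately (log2 -0.27). Hcn2 rose by 0.68 ± 0.14 on the log2 scale in G1 cells (edgeR adjusted p = 0.00029). A pass in one set of cells and not in the other is no test of a difference between them, which is given separately.

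**Figure D4:**
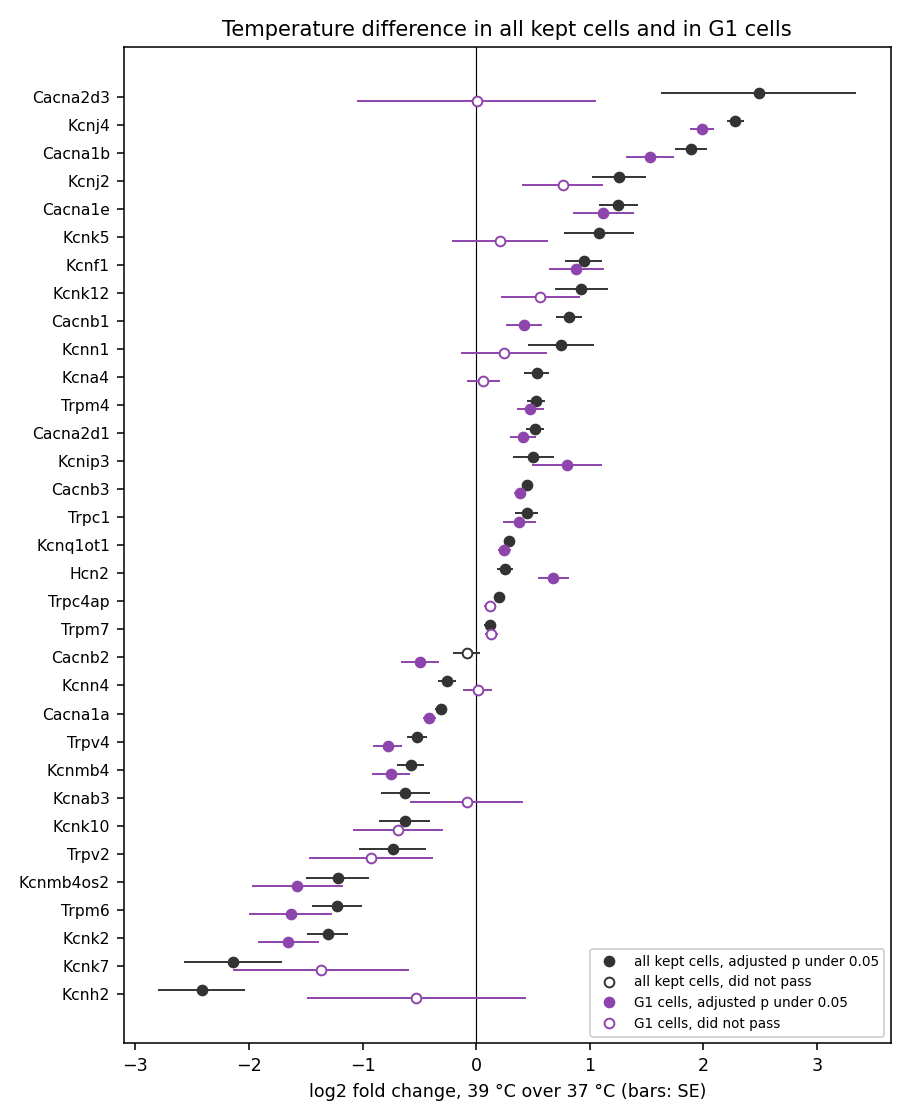
Log2 fold change of 39 °C over 37 °C with its standard error (horizontal axis) in all kept cells (black) and in G1 cells (purple) for 33 of the members that passed in either set and were tested in both, with filled points for those that passed. Kcnj4, Cacna1b and Kcnk2 are far from 0 in both sets, while the G1 value of Kcnh2 has a wide error that spans 0.

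Within the 37 °C libraries, G2M cells were set against G1 cells of the same library, which holds temperature and serum fixed. Of 49 tested members, 18 passed, 36.7%, against 44.9% of 14205 genes: 5 were higher in G2M cells (10.2% against 23.1%) and 13 were lower (26.5% against 21.8%). The median log2 difference was -0.17 over the members and 0.00 over all genes. Over all genes the split depended on scaling, with 3285 higher and 3095 lower here, but 2435 and 4162 with upper-quartile factors. Kcnab2, a beta subunit of voltage-gated potassium channels, measured 0.818, 1.13, 1.72 and 1.11 CPM in G1 cells and 2.24, 3.58, 3.40 and 2.30 CPM in G2M cells of replicates 1 to 4. Every library was higher in G2M (log2 1.27 ± 0.29 SE, edgeR adjusted p = 0.000115). Hcn2 was higher by 0.51 ± 0.15 on the log2 scale (edgeR adjusted p = 0.00351) but lost the call without 37 °C replicate 1, and Kcnn4 by 0.28 ± 0.12 (edgeR adjusted p = 0.0462), a call lost under 7 settings. Kcnh2 had 3 UMIs in G1 cells and 26 in G2M cells at 37 °C, a ratio of 4.64 with a 95% counting interval of 1.42 to 23.9 (edgeR adjusted p = 0.0152). With phases assigned by scanpy it lost the call, as it did without 37 °C replicate 2 or 3. Cacna1i had 0 UMIs in G1 cells and 11 in G2M cells, at least 1.96-fold higher against a floor of 3 counts over the group, and lost the call when any 37 °C library was left out.

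Lower in G2M cells were members that had moved both ways with temperature. Kcna4 measured 7.77, 7.32, 7.23 and 5.36 CPM in G1 cells and 2.78, 2.97, 4.04 and 4.34 CPM in G2M cells, lower in all 4 libraries (log2 -0.97 ± 0.18 SE, edgeR adjusted p = 2.18e-06). Kcnk2 measured 3.27, 2.06, 2.07 and 3.14 CPM in G1 and 1.25, 1.33, 1.38 and 1.11 CPM in G2M cells (log2 -1.07 ± 0.27 SE, edgeR adjusted p = 0.000641). What part phase had in the temperature difference of Kcnk2 or of the other members was not tested. Cacna1a too was lower in G2M cells, with 143 ± 8.95 CPM in G1 and 106 ± 6.44 CPM in G2M cells at 37 °C (SD, n = 4 each; log2 -0.43 ± 0.04 SE, edgeR adjusted p = 9.68e-18), and so was Trpv4 (log2 -0.77 ± 0.13 SE, edgeR adjusted p = 4.7e-07). Cacnb2 and Kcnn2 were also lower, by -0.79 ± 0.19 and -1.79 ± 0.50 on the log2 scale (SE). Kcnn2 was the strict call among members, 2.04% of them, against 3.63% of all genes. Its levels were low, at 0.818, 0.939, 1.03 and 1.48 CPM in G1 cells and 0.179, 0.307, 0.460 and 0.255 CPM in G2M cells. Kcnj4 (log2 -0.18 ± 0.14 SE) and Cacna1b (log2 -0.77 ± 0.33 SE, edgeR adjusted p = 0.0526) did not pass.

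**Figure D5:**
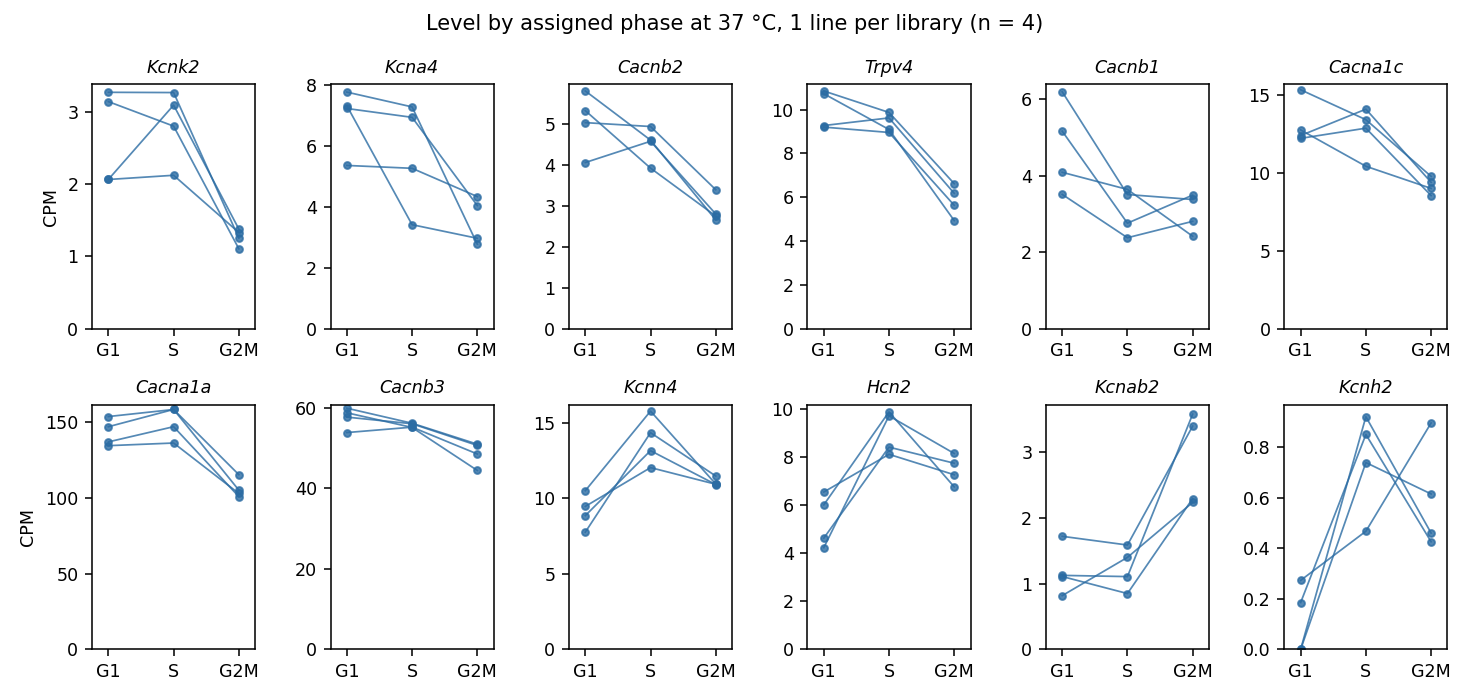
Level in CPM (vertical axis of each panel, from 0) of 12 members in cells assigned to G1, S and G2M at 37 °C, with 1 line per library. Kcnk2, Kcna4 and Trpv4 lie lower in G2M than in G1 cells in all 4 libraries, and Kcnab2 and Kcnh2 lie higher.

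Whether temperature acted differently in G1 cells and in the other cells (S and G2M together) was tested as an interaction, with the library as a block. The other cells were not the same mix at both temperatures. At 37 °C, 37.2% to 42.7% of a library were S and 34.2% to 37.3% G2M cells, against 10.9% to 12.3% and 3.35% to 5.70% at 39 °C. Kcna4 and Cacnb2 were lower in G2M than in G1 cells at 37 °C, and what part the mix had in the interaction was not tested. Of 53 tested members, 5 passed. In 4 the effect was more positive outside G1 (7.55%, against 4.94% of 14745 genes), and in 1 more negative (1.89% against 11.1%). Over all genes, 729 were higher and 1630 lower, but the split turned to 1024 and 1015 with RLE factors, 1376 and 743 with upper-quartile factors and 1657 and 603 with library totals alone. Kcna4 was at 7.01 ± 1.08 and 7.41 ± 1.01 CPM in G1 cells at 37 °C and 39 °C and at 4.78 ± 1.04 and 8.47 ± 1.22 CPM in the other cells (SD, n = 4 each). The means of the other cells were thus further apart than those of G1 cells, and the difference of the effects was 0.76 ± 0.20 on the log2 scale (SE; edgeR adjusted p = 0.00238). Kcnq1ot1 had a smaller difference, 0.30 ± 0.06 (edgeR adjusted p = 3.34e-05). Kcnf1 and Cacnb2 differed by 1.05 ± 0.33 and 0.81 ± 0.26 (edgeR adjusted p = 0.0146 and 0.0151), and lost the call without 39 °C replicate 4, Kcnf1 also without 37 °C replicate 4 and Cacnb2 also without 37 °C replicate 2. Cacnb3, at -0.23 ± 0.07, lost it under every other scaling tried. For Kcnj4 the difference was 0.06 ± 0.16, and for Kcnh2 -1.27 ± 1.45, neither passing. Kcnk7, Kcnn4 and Hcn2, at -0.74 ± 1.41, 0.09 ± 0.16 and -0.12 ± 0.19 (SE), did not pass either.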

How the data were processed

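The deposited matrices held UMI counts per gene and cell, which the authors made by aligning 3′ single-cell reads to mm10 with Cell Ranger 3.0.1 (submitters' processing notes) without normalization. The 8 samples were grouped by the temperature in their labels. Following the study, cells with over 15% mitochondrial UMIs (334), more than 6000 genes (440) or fewer than 200 (29) were removed. Some cells were beyond more than 1 of these limits, and 18351 of 19125 cells remained. The limit on genes was the means against doublets. Phases came from CellCycleScoring in Seurat 5.3.0 (42 of 43 S and 52 of 54 G2M genes were found), and no member is in those lists. Counts were summed per library, or per library and phase, since cells are not replicates, and genes averaging 1 count or more were tested. The quasi-likelihood test of edgeR 4.0.16 (in R 4.3.3) was used after TMM scaling, p-values were adjusted by Benjamini-Hochberg over all genes, and SE is the fold change over the square root of F. CPM use totals of tested genes scaled by TMM, while subfamily sums, marker sums and levels over pooled libraries are per 1000000 UMIs of all genes. The 17166686 to 29633818 UMIs per library set the precision: intervals are 95% exact ones, 0 counts allow a level of up to 3 counts, and both cover counting error only. The procedure was tested on simulated data.

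Gene positions and overlaps are those of GENCODE M21, and windows before gene starts come from RefSeq (GRCm38.p6), with 115 of 152 members matched. Members passing the test are counted in full. Those given with values are members with strict calls, the 12 largest rises and falls at 1 CPM or more without overlap, the 10 highest, the 5 largest phase differences each way, those passing the interaction test, Cacna1b as named by the study, and the member with most UMIs where a subfamily had no other. Others were named after their values were seen. Some members and other genes are counted but not reported by name here. The members, the lists and this rule were chosen with earlier results of these data known. Same-numbered libraries were not taken as pairs, because their deviations from the group means correlated at -0.12, -0.12, -0.09 and 0.28. Alternatives were other scalings, filters, the replicate number as a block, DESeq2 1.42.0, other cell filters, thinning to equal totals, other phase scoring (scanpy 1.11.5) and leaving out each library. The counting is not stated to use strand, so reads of antisense partners may not be told apart.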

Additional observations from a re-analysis of the deposited data

Results flagged for a closer look

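Levels of 4 members had 1 library far from the other three of its group, by Dixon's ratio at its 95% critical value, out of 60 groups examined, of which chance would give about 1 in 20. All were at 39 °C: Kcnh2 at 0.177 CPM in replicate 3, Kcnk7 at 0.227 CPM in replicate 2, Kcnf1 at 5.01 CPM in replicate 4 and Kcnmb4 at 4.39 CPM in replicate 4. In each case the library lay on the side of its group nearest to the other temperature, except for Kcnf1, where it lay further away. Kcnf1, Kcnmb4, Kcnh2 and Kcnk7 kept their calls in all kept cells without that library.

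The effect of temperature differed between the other cells and G1 cells in 5 members by the interaction test in edgeR. The other cells were a different mix of S and G2M cells at each temperature. The difference on the log2 scale was 1.05 for Kcnf1, 0.81 for Cacnb2, 0.76 for Kcna4, 0.30 for Kcnq1ot1 and -0.23 for Cacnb3. Cacnb2 was at 5.13 and 3.62 CPM in G1 cells at 37 °C and 39 °C and at 3.85 and 4.86 CPM in the other cells, so that its means moved in opposite directions. Kcnq1ot1 kept its call under all 14 alternatives, Kcna4 under all but DESeq2, and Cacnb3 under 5 of 14.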

How the results depend on the processing

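No member that passed changed sign under any alternative that tested it, while Cacna1c and Kcnn2, which did not pass in all kept cells, ran from -0.06 to 0.03 and from -0.05 to 0.53 in log2 fold change. Of the 34 members that passed in all kept cells, 25 kept the call under every alternative that tested them, as did 14 of 19 in G1 cells, 9 of 18 between phases and 1 of 5 for the interaction. Trpm7, Kcnn3, Trpv2, Kcnip3, Kcnn1, Kcnab3, Cacna2d3 and Kcnk10 lost theirs in all kept cells under 11, 9, 9, 7, 6, 5, 3 and 2 of them. Leaving out each library in turn gave 18 to 21 members higher and 10 to 13 lower in all kept cells with 4 to 6 strict calls, 9 to 11 higher and 6 to 8 lower in G1 cells with 3 to 5 strict calls, 2 to 5 higher and 11 to 14 lower in G2M cells, and 2 to 4 higher and 0 to 1 lower for the interaction. For the other ion transport genes it gave 24 to 26 higher and 14 to 16 lower.

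Members higher in G2M cells numbered 3 with filterByExpr and 2 with DESeq2, in place of 5, and members lower were 8 with DESeq2 in place of 13. With filterByExpr, which tested fewer genes, 3 strict calls were left in G1 cells in place of 5. For the interaction, DESeq2 gave 1 member higher and 0 lower, and RLE, upper-quartile and total scaling gave 0 lower. Where not stated, the cause was not tested. Members detected were 110, but 62 averaged at least 1 count per library and 49 had a UMI in every library. With the replicate number as a block, 21 members were higher and 11 lower in all kept cells, with Kcnn3 and Trpv2 losing their calls, and 12 and 7 in G1 cells, where none was lost. The samples share only a number, and the block moved genes passing from 9803 to 9617 and from 6902 to 6761. Without the library block, 4 members were higher and 12 lower in G2M cells.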

Other observations

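Other genes of ion transport gave a further view of these cells. Of a list of 84 such genes, 65 were tested, 25 rose and 16 fell at 39 °C (38.5% and 24.6%, against 31.5% and 30.5% of all genes), with a median log2 fold change of 0.06. Scn3b, an accessory subunit of sodium channels, rose most, from 0.576 ± 0.215 to 3.44 ± 0.376 CPM (SD, n = 4 each; log2 2.57 ± 0.19 SE, edgeR adjusted p = 5.05e-10). Slc8b1, the mitochondrial sodium-calcium exchanger, rose from 3.97 ± 0.384 to 10.0 ± 0.960 CPM (log2 1.32 ± 0.09 SE, edgeR adjusted p = 3.26e-10). Of 9 tested sodium channel genes, 4 rose and none fell. Of 19 tested store-operated and intracellular calcium channel genes, 10 rose and 3 fell.

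Atp1b1, a subunit of the sodium-potassium pump, fell most, from 4.54 ± 0.632 to 1.56 ± 0.226 CPM (SD, n = 4 each; log2 -1.54 ± 0.14 SE, edgeR adjusted p = 1.31e-08). Next came the calcium release channel Ryr1, on 39 UMIs against 14. The calmodulin gene Calm3 fell from 111 ± 5.37 to 65.7 ± 3.40 CPM. Rest, a repressor known to act on many neuronal channel genes, rose from 116 ± 1.97 to 155 ± 5.13 CPM (log2 0.42 ± 0.04 SE, edgeR adjusted p = 7.6e-08).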
